A study of Homo sapiens with 6 samples.

Results

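The genes described here are the 6 human DNA topoisomerases, TOP1, TOP1MT, TOP2A, TOP2B, TOP3A and TOP3B, and 4 genes whose products take trapped topoisomerases off DNA, TDP1, TDP2, SPRTN and TEX264. They were chosen by symbol, not by their values, and all 10 were measured among the 13696 genes of the deposited table. All 10 also passed the filter on low values, a mean of at least 1 CPM (read counts scaled to a common library total), which left 13616 genes for testing. The series holds 6 RNA-seq libraries of hTERT RPE-1, a line of human retinal pigment epithelial cells immortalised with telomerase. All 6 sample titles also carry the term Top1 after the cell line, and the titles do not say what it stands for. There were 3 libraries of untreated cells, and 3 of cells given a pre-dose of camptothecin at 25 nM for 1 h and harvested 24 h after the drug was removed. The labels give the same cell line and the same growth medium for both groups. RNA was selected by poly-A tail, so only the RNA level of these genes was measured, and no protein, enzyme activity or trapped complex. Separate cultures are not stated for the replicates, and p-values here measure only the spread between these libraries, which may be technical.

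Topoisomerases relieve the twisting and knotting of DNA by cutting it and holding the cut end through a tyrosine of the enzyme. Type I enzymes cut a single strand and type II enzymes cut both. Camptothecin holds TOP1 in its cut state, which leaves the enzyme linked to DNA through its tyrosine. Such a complex is broken down by proteases such as SPRTN and the proteasome, and the remaining peptide is cut off by a phosphodiesterase, TDP1 for TOP1 and TDP2 for TOP2. TEX264 is an adaptor that brings SPRTN and the ATPase p97 to TOP1. In dividing cells TOP2A follows the cell cycle and peaks in G2 and mitosis, whereas TOP2B is made throughout the cycle and in resting cells.

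The promoters of the drug target and of both type IIA genes are shown because TOP2A and TOP2B took different courses in these libraries. The sequences are from RefSeq (GRCh38.p14), run 5′ to 3′ on the gene's strand and end at the base before the gene start in GENCODE release 29. TOP1 is at chr20:41028572-41028817 on the plus strand, TOP2A at chr17:40417951-40418146 and TOP2B at chr3:25664908-25665157, both on the minus strand. Capitals mark 2 short motifs on either strand, TTTGAA, the core of the cell cycle element CHR (reverse complement TTCAAA), and CCAAT (reverse complement ATTGG). The motifs do not overlap each other.
TOP1: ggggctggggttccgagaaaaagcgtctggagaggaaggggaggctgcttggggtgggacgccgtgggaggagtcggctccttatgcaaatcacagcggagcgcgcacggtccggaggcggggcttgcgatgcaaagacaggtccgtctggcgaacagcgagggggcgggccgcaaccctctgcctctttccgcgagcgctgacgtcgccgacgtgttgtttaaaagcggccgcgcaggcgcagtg
TOP2A: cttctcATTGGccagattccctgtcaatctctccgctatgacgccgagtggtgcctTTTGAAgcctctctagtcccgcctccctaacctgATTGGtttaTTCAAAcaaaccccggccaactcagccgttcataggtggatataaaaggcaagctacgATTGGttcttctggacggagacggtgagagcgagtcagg
TOP2B: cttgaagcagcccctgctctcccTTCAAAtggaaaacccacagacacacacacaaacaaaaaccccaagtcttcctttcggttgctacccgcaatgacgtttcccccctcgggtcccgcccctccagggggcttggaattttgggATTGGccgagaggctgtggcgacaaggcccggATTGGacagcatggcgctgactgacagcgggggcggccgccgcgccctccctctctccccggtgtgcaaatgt
The TOP2A stretch held TTTGAA at 2 places and CCAAT at 3, all CCAAT on the reverse strand. The TOP2B stretch held 1 and 2, and the TOP1 stretch neither. Of all 35116 RefSeq promoter windows of 300 bases, 15.2% held TTTGAA, 34.6% CCAAT and 5.90% both. These shares are per window, whereas a gene was counted if any of its windows held the motif. Among the 9 of the 10 genes with a window in that table, TOP2A and TOP2B then held both, and SPRTN and TDP1 held TTTGAA without CCAAT. For TOP2B the window at chr3:25664858-25665157 held both, and that at chr3:25664323-25664622 held neither. Counted over any window, the presence of both motifs therefore did not separate TOP2A from TOP2B.

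The implied library totals were 26336942 to 31780392 reads. The lowest of the 10 genes, SPRTN, was covered by an estimated 277 to 379 reads per library and the highest, TOP2A, by 9841 to 12329, so counting alone gave the difference within a pair of SPRTN libraries an SD of 0.11 to 0.12 on the log2 scale and that of TOP2A one of 0.019 to 0.020. The cells had the keratins of a simple epithelium (KRT8, 869 to 979 CPM) and the pigment epithelial factors MITF (44.9 to 50.6 CPM) and OTX2 (15.8 to 18.4 CPM). They also had the mesenchymal markers VIM (8644 to 11123 CPM), THY1 (700.5 to 739.7 CPM) and COL1A1 (139.0 to 428.2 CPM). COL1A1, a collagen chain, was lower after the pre-dose in all 3 pairs, by differences of -0.20, -0.35 and -0.73 on the log2(CPM + 1) scale, and lower in replicate 1 than in the other replicates by -1.22 (limma, adjusted p = 2.30e-05). VIM was higher in replicate 1 by 0.31 (adjusted p = 3.16e-04). Of 21 marker genes looked for, 10 were not found by symbol among the 13696 genes. They included the pigment epithelial markers RPE65, RLBP1, PMEL, TYR, LRAT and TTR, the mesenchymal marker COL1A2, and PTPRC. CD68, a macrophage marker that other cells also express, was at 0.27 and KRT18 at -0.14 (log2 difference) in the authors' deposited table, past its threshold. The part of these markers in the results was not tested. Both replicate 1 libraries stood apart from the other 4: with treatment in the model, 5560 of 13616 genes differed between replicate 1 and replicates 2 and 3 (limma, adjusted p under 0.05). Results are therefore also given within pairs of the same replicate number and without replicate 1. The p53 targets CDKN1A and MDM2 were higher in the pre-dose library of every pair, by 0.42, 1.32 and 1.02 (CDKN1A) and 0.20, 0.71 and 0.59 (MDM2) on the log2(CPM + 1) scale for replicates 1, 2 and 3. For both genes the untreated and pre-dose libraries overlapped. Neither passed in limma with all 6 libraries weighted alike, which called 0 genes, and both passed in the authors' deposited table (adjusted p = 0.0254 each).

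Per length of transcript, TOP2A was the most abundant of the 10 and SPRTN the least. Levels were divided by the merged exon length of each gene, since longer transcripts give more reads. TOP2A had 57.9 ± 4.96 CPM per kb in untreated cells (SD, n = 3, as for all levels in this paragraph). TOP1, with 25.1 ± 1.59 CPM per kb, and TOP2B, with 23.2 ± 2.46, came next and their libraries overlapped. TDP2 followed with 7.76 ± 0.15 CPM per kb, above all libraries of the genes below it. TEX264 (5.46 ± 0.42 CPM per kb), TOP3A (5.41 ± 0.72) and TDP1 (4.71 ± 0.25) overlapped with their neighbours in that order. TOP3B stood at 3.87 ± 0.30 CPM per kb. TOP1MT (2.11 ± 0.24 CPM per kb) and SPRTN (1.90 ± 0.11) overlapped at the low end. With merged exons the order of all 10 was the same in pre-dose cells. The order depends on the length used. With the longest transcript of each gene TOP2B moved ahead of TOP1 in untreated cells (26.0 against 25.1 CPM per kb). TOP1MT, at 6.71 CPM per kb, moved above TOP3B at 6.17, and TEX264 fell from rank 5 to rank 7. With that length the order also differed between the groups, with TOP3A at rank 5 in untreated and rank 8 in pre-dose cells.

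**Figure D1:**
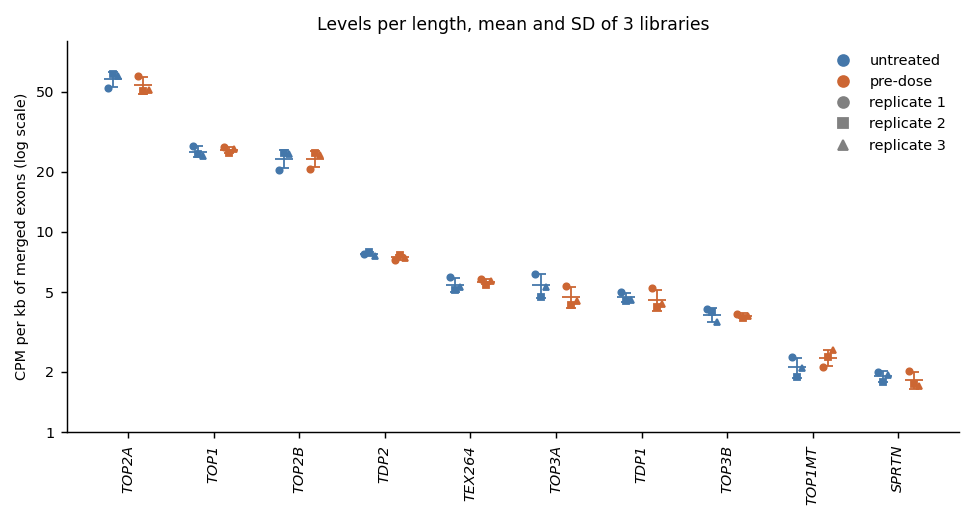
Level of each gene per kb of merged exons on a log axis, for 3 untreated (blue) and 3 pre-dose (orange) libraries; dashes and bars are means and SDs, and marker shapes are replicates. TOP2A lies near 58 in untreated cells, TOP1 and TOP2B between 20.4 and 26.9, and the other 7 genes below 8.

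None of the 10 genes passed the threshold between pre-dose and untreated cells in limma with all 6 libraries weighted alike, and TOP2A passed it in the authors' deposited comparison (adjusted p = 0.0373). Limma called 0 of the 10, and 0% of all 13616 genes, at an adjusted p of 0.05. At an unadjusted p under 0.05 it again had 0 of the 10, where 2.06% of all genes passed. Voom on estimated counts and the fit with replicate number as a block also called 0 genes. Voom with library quality weights called 0 of the 10 and 108 of all genes. The fitted differences ran from -0.18 (TOP3A) to 0.15 (TOP1MT) on the log2(CPM + 1) scale, with a median of -0.028, and the median of all genes was -0.0013. Their adjusted p was 1.00 in each case. No gene of the 10 had untreated and pre-dose libraries that did not overlap, while 3.36% of all genes had every pre-dose library higher and 3.19% every one lower. The 95% intervals set limits on what these libraries could show: the widest, for TOP3A, ran from 0.725 to 1.07 times the untreated level, and the narrowest, for TDP2, from 0.869 to 1.07 times.

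**Figure D2:**
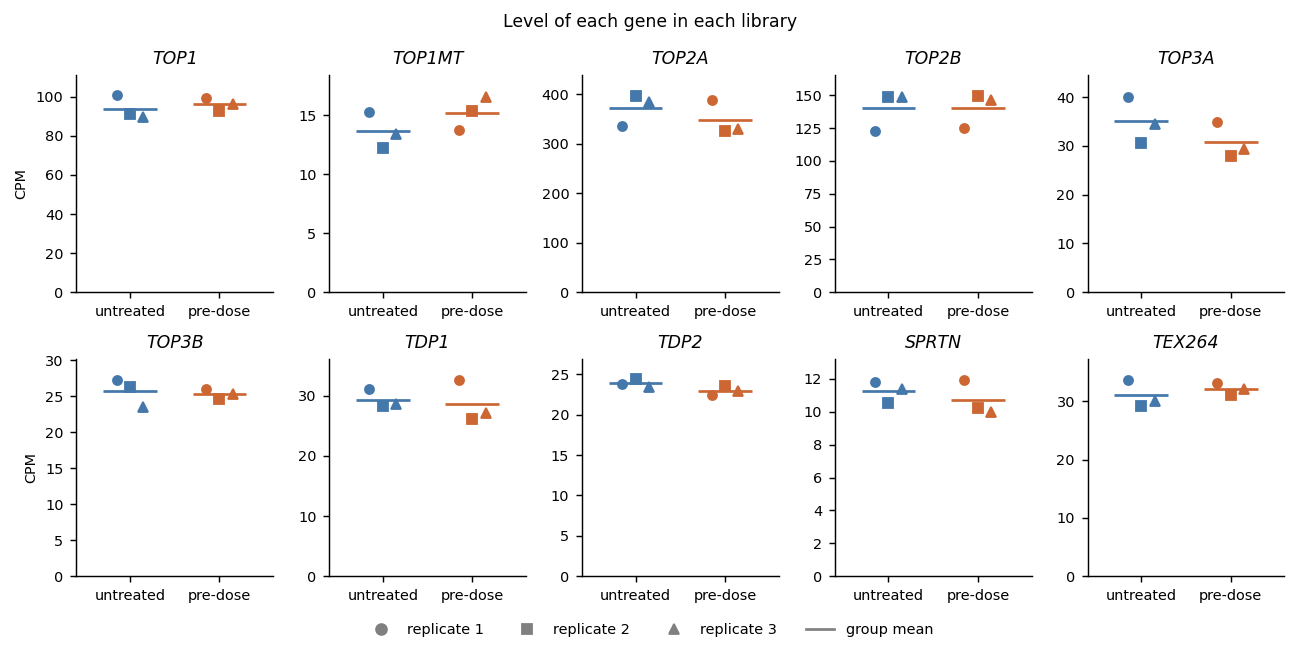
CPM of each gene (vertical axes start at 0) in each untreated (blue) and pre-dose (orange) library, with group means as lines and replicates as marker shapes. Untreated and pre-dose libraries overlap for all 10 genes, and for TOP2A the replicate 1 libraries lie in the opposite order to those of replicates 2 and 3.

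The camptothecin target TOP1 (chromosome 20, 41028818 to 41124487, plus strand of GRCh38) did not pass the threshold in any fit of the pre-dose difference. Its level was 101, 91.3 and 89.7 CPM in untreated and 99.3, 92.5 and 96.5 CPM in pre-dose replicates 1, 2 and 3. The values of the pre-dose libraries fell within the range of the untreated ones. Limma put the log2 difference at 0.03 (95% interval -0.12 to 0.19), which corresponds to 0.920 to 1.14 times the untreated level. With replicates 2 and 3 alone it was 0.06, with an interval of -0.03 to 0.15 and an adjusted p of 0.418 in limma.

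TOP1MT, the type IB enzyme of mitochondria, is on chromosome 8 and had a lower level than TOP1. It was measured at 15.3, 12.2 and 13.4 CPM in untreated replicates 1, 2 and 3 and at 13.7, 15.3 and 16.5 CPM in the pre-dose ones. Pre-dose replicates 2 and 3 were higher than their untreated partners by 0.31 and 0.28 on the log2(CPM + 1) scale, and pre-dose replicate 1 was lower than its partner by a difference of -0.14. Over 6 libraries the difference was 0.15 (95% interval -0.10 to 0.40), and it ran from 0.077 (without untreated replicate 2) to 0.23 (without untreated replicate 1) when 1 library was left out. In replicates 2 and 3 alone it was 0.30 (0.12 to 0.47), with an adjusted p of 0.0556 in limma, where 6.36% of all genes were called, and 0.0283 when those 2 replicate numbers were used as a block, where 9.01% were. The authors' deposited table gave TOP1MT a log2 difference of 0.31 and an adjusted p of 0.0530.

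TOP2A, which separates the sister chromatids before they part in mitosis, was lower after the pre-dose in replicates 2 and 3 and higher in replicate 1. It lies on chromosome 17 from 40388516 to 40417950 (minus strand), downstream of the promoter shown above. The untreated libraries of replicates 1, 2 and 3 had 336, 396 and 385 CPM, and the pre-dose libraries 388, 326 and 331 CPM. So the lowest untreated library and the highest pre-dose library both belonged to replicate 1. The pair differences were 0.21, -0.28 and -0.22 on the log2(CPM + 1) scale, 10.6 to 13.8 times in size the SD that counting alone gives.

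Over all 6 libraries TOP2A had a difference of -0.10 with a 95% interval of -0.32 to 0.12. With 1 library left out it ran from -0.18 (without pre-dose replicate 1) to -0.051 (without untreated replicate 2). In replicates 2 and 3 alone it fell by 0.25 (interval -0.32 to -0.18), with an adjusted p of 0.00187 in limma. It was then the one gene of the 10 past the threshold, against 6.36% of all genes. Voom with library quality weights, which gave the replicate 1 libraries weights of 0.23 and 0.199 and the others 1.26 to 2.86, gave a TOP2A difference of -0.22 and an adjusted p of 0.0533, with 0.793% of all genes called. The authors' deposited table listed TOP2A with a log2 difference of -0.22 and an adjusted p of 0.0373, among 3.05% of its genes past the threshold, and no other gene of the 10 passed there.

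The TOP2A difference of the replicate 1 pair was tested against that of the other pairs. This split was chosen because the replicate 1 libraries stood apart in these same data. The test is of the size of the difference and not of its sign. The interaction of treatment and replicate 1 in limma was 0.46 on the log2 scale with a 95% interval of 0.33 to 0.58 and an adjusted p of 0.00521. It passed for 1 of the 10 genes, TOP2A, and for 1.11% of all genes. TOP1MT had the next largest interaction, -0.44 (interval -0.75 to -0.13), with an adjusted p of 0.210. Without pre-dose replicate 2 the TOP1MT interaction was -0.49, in a fit whose spread came only from untreated replicates 2 and 3. The TOP2A term kept its call without any 1 of the 4 libraries of replicates 2 and 3, at 0.44 to 0.48. Only 1 replicate 1 library per group was measured, so the spread in this test came from replicates 2 and 3.

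Mitotic genes took the same course as TOP2A. All 15 mitotic genes set beside it were higher in the pre-dose library of the replicate 1 pair, and all 15 were lower in those of replicates 2 and 3. Of all genes tested, 32.8% had the replicate 1 pair opposite in sign to both other pairs. The 15 were listed with earlier results of these data known. Their median pair differences were 0.21, -0.50 and -0.29 on the log2(CPM + 1) scale, where all genes tested had medians of -0.0039, -0.0024 and 0.0012. MKI67, a marker of dividing cells, had 1060, 1033 and 1040 CPM in untreated and 1225, 741 and 855 CPM in pre-dose replicates 1, 2 and 3. CDK1, the kinase that drives mitotic entry, had 34.2, 40.4 and 38.6 CPM and then 40.1, 28.4 and 32.3 CPM. The interaction passed for 13 of these 15 genes in limma, MKI67 (0.59, adjusted p = 0.0194) and CDK1 (0.60, adjusted p = 0.0372) among them, against 1.11% of all genes. In the replicate 2 pair the TOP2A difference, -0.28, was smaller in size than that of each of the 15, which ran from -0.33 (BIRC5) to -0.62 (AURKB). In the replicate 1 and 3 pairs TOP2A lay within their range. In bulk RNA, fewer cells in G2 or mitosis and less RNA per cell cannot be told apart, and the part of the cell cycle in the TOP2A difference was not tested.

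**Figure D3:**
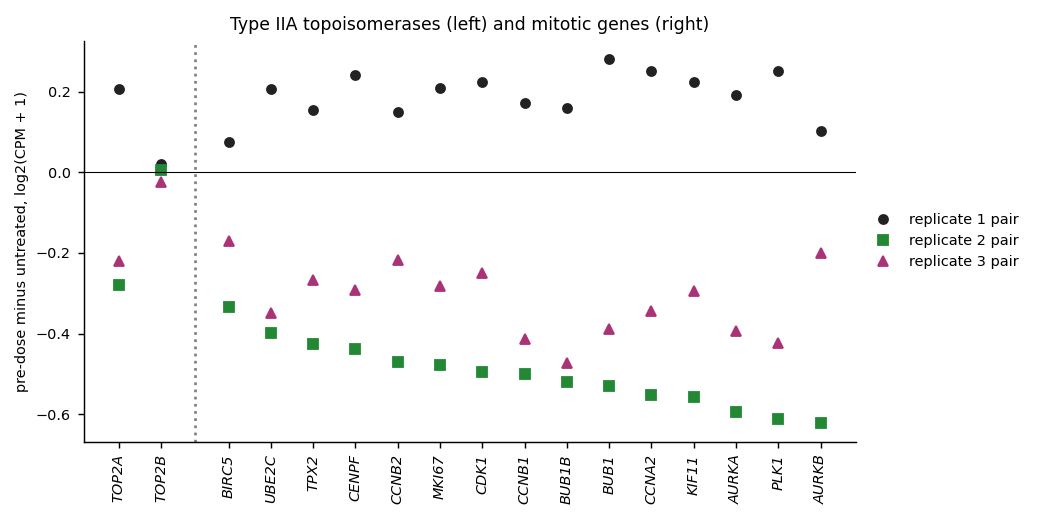
Pre-dose minus untreated difference in log2(CPM + 1) for TOP2A, TOP2B and 15 mitotic genes (horizontal axis), with 1 point for each replicate pair. TOP2A and all 15 mitotic genes lie above 0 in the replicate 1 pair and below 0 in the other pairs, while the TOP2B points lie between -0.02 and 0.02.

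TOP2B, the type IIA enzyme that is also made in resting cells, lies on chromosome 3 from 25597905 to 25664907 (minus strand). Its pair differences were 0.02, 0.0046 and -0.02 on the log2(CPM + 1) scale, from 123, 149 and 149 CPM in untreated and 125, 149 and 146 CPM in pre-dose replicates 1, 2 and 3. Both replicate 1 libraries were lower than the other 4, which lay within 146 to 149 CPM. The 6-library difference was 0.00074 with a 95% interval of -0.24 to 0.24. With the replicate number as a block the interval narrowed to -0.08 to 0.08. The log2 ratio of TOP2A to TOP2B, which does not depend on library scaling, was 1.41 ± 0.04 in untreated and 1.31 ± 0.28 in pre-dose libraries (SD, n = 3 each). It differed by 0.19, -0.28 and -0.20 in the 3 pairs. An exact permutation test of the group means, two-sided, gave p = 0.5, and 3 libraries against 3 allow no p below 0.1.

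TOP3A, the type IA enzyme that untangles recombining DNA together with the helicase BLM, was lower after the pre-dose in all 3 pairs. It lies on chromosome 17 from 18271428 to 18315007 (minus strand). Untreated replicates 1, 2 and 3 had 40.0, 30.7 and 34.4 CPM and pre-dose replicates had 35.0, 27.9 and 29.4 CPM. The groups overlapped because the replicate 1 libraries were the highest of each. The pair differences were -0.19, -0.13 and -0.22, against counting SDs of 0.060, 0.071 and 0.066. The 6-library difference was -0.18 (95% interval -0.46 to 0.10), and with 1 library left out it ran from -0.27 (without pre-dose replicate 1) to -0.083 (without untreated replicate 1). With the replicate block the interval was -0.29 to -0.07, with an unadjusted p of 0.00581 in limma, and the adjusted p of 0.340 did not pass. In replicates 2 and 3 alone the difference was -0.18 with an adjusted p of 0.149. The interaction with replicate 1 was -0.01 (interval -0.26 to 0.23). Of all genes, 16.3% were lower in all 3 pairs, and 2 of the 10 genes were, TOP3A and TDP2.

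TOP3B, the type IA enzyme that also acts on RNA, had 27.3, 26.3 and 23.5 CPM in untreated and 26.0, 24.7 and 25.3 CPM in pre-dose replicates 1, 2 and 3. The pre-dose libraries lay within the range of the untreated ones, and the difference was -0.02 (95% interval -0.20 to 0.16). The gene lies on chromosome 22 from 21957025 to 21982816 (minus strand), and 90.7% of its exonic bases are overlapped by exons of AC245452.1 on the opposite strand in GENCODE. The strand setting of the counting is not given in the sources used here, so reads of the 2 genes cannot be told apart. For SPRTN that share was 12.7% (EXOC8), for TOP1 2.41% (PLCG1-AS1), and for the other 7 genes at most 0.463%.

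**Figure D4:**
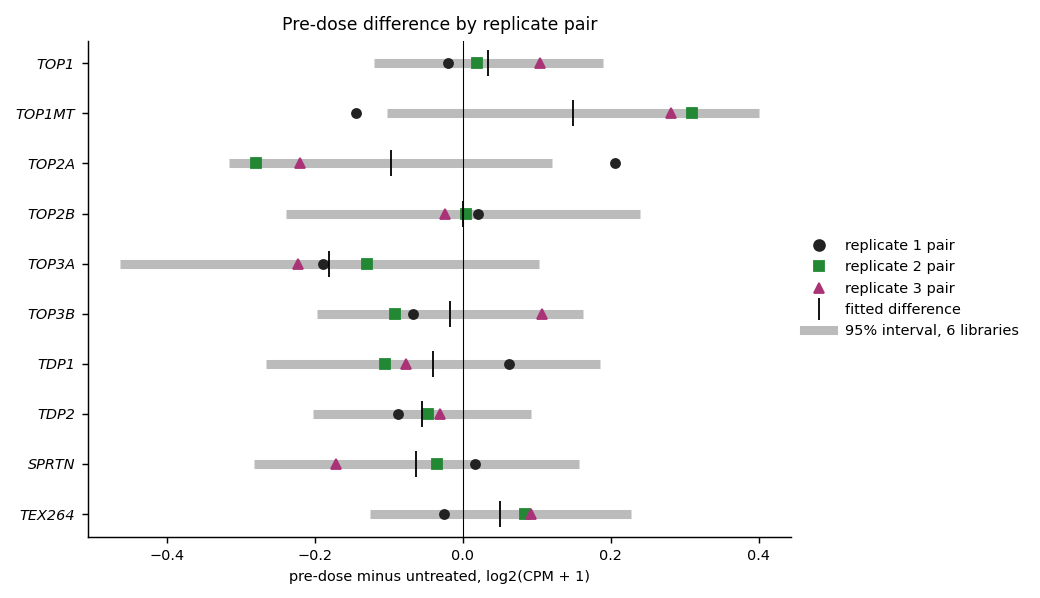
Pre-dose minus untreated difference in log2(CPM + 1) of each gene, by replicate pair (points), with the fitted difference of all 6 libraries (tick) and its 95% interval (grey bar). All 10 intervals hold 0. TOP3A and TDP2 are below 0 in all 3 pairs. TOP1, TOP1MT, TOP2A, TDP1, SPRTN and TEX264 have the replicate 1 pair on the opposite side of 0 from the others.

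None of the 4 removal enzymes passed the threshold in any fit of the pre-dose difference. TDP1, which cuts the tyrosine of TOP1 from a 3′ end, had 31.1, 28.2 and 28.6 CPM in untreated and 32.6, 26.2 and 27.1 CPM in pre-dose replicates 1, 2 and 3. It lies on chromosome 14 from 89954939 to 90044768 (plus strand). The pair differences were 0.06, -0.11 and -0.08, close to the counting SDs of 0.065 to 0.074, and the 6-library difference was -0.04 (95% interval -0.27 to 0.19). Relative to TOP1, the log2 ratio of TDP1 was -1.69, -1.69 and -1.65 in untreated and -1.61, -1.82 and -1.83 in pre-dose libraries. The ratio thus stood above the untreated values in pre-dose replicate 1 and below them in replicates 2 and 3. The exact permutation test, two-sided, gave p = 0.4 for a difference of -0.08, with 0.1 as the smallest p possible.

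TDP2, which cuts the tyrosine of TOP2 from a 5′ end, lies on chromosome 6 from 24649977 to 24667033 (minus strand). Its 6 libraries lay within 22.4 to 24.4 CPM: 23.8, 24.4 and 23.5 CPM untreated and 22.4, 23.6 and 23.0 CPM pre-dose. It was lower in all 3 pairs, by differences of -0.09, -0.05 and -0.03, with counting SDs of 0.077 to 0.079. Untreated replicate 3 (23.5 CPM) lay below pre-dose replicate 2 (23.6 CPM), so this result rests on the pairing by number. The fitted difference was -0.05 (95% interval -0.20 to 0.09).

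SPRTN, a DNA-dependent metalloprotease, lies on chromosome 1 from 231337104 to 231355023 (plus strand). It had 11.8, 10.5 and 11.4 CPM in untreated and 11.9, 10.2 and 10.0 CPM in pre-dose libraries, with pair differences of 0.02, -0.03 and -0.17. Pre-dose replicates 2 and 3 were the lowest of the 6. The fitted difference was -0.06 (95% interval -0.28 to 0.16). TEX264 lies on chromosome 3 from 51662693 to 51704323 (plus strand). It had 33.7, 29.2 and 30.1 CPM in untreated and 33.1, 31.1 and 32.2 CPM in pre-dose libraries, with pair differences of -0.02, 0.08 and 0.09. Its fitted difference was 0.05 (95% interval -0.13 to 0.23).

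Across the 10 genes, the replicate 1 pair had the opposite sign to both other pairs for 6, namely TOP1, TOP1MT, TOP2A, TDP1, SPRTN and TEX264. Of all genes tested, 32.8% showed that pattern. The offset of replicate 1, its level minus that of replicates 2 and 3, was fitted with treatment in the model. The offset passed for 4 of the 10 genes in limma, against 40.8% of all genes. It passed as higher in replicate 1 for 3 of the 10, against 20.3% of all genes. TOP2B was lower in replicate 1, by -0.26 (adjusted p = 3.24e-04). TOP3A was higher by 0.29 (adjusted p = 0.00355), TDP1 by 0.20 (0.0144) and TOP1 by 0.11 (0.0445). The TOP1 call was lost without untreated replicate 2 (adjusted p = 0.0993), untreated replicate 3 (0.137) or pre-dose replicate 2 (0.0834). For each of these 4 genes the offset was larger in size than the 6-library pre-dose difference. What set the replicate 1 libraries apart was not tested, and the labels name no batch.

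**Figure D5:**
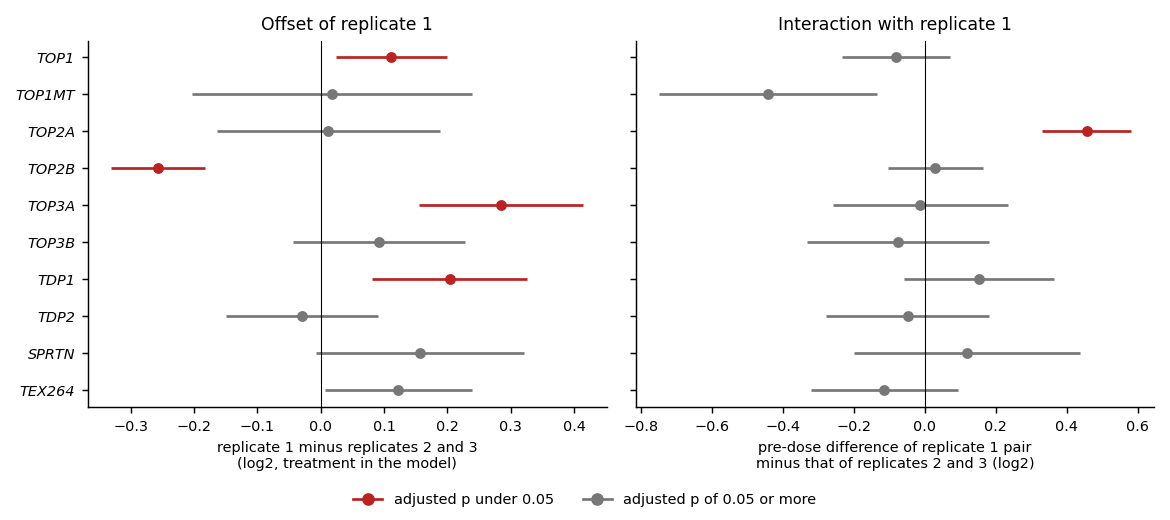
Left, level in replicate 1 minus replicates 2 and 3, and right, pre-dose difference of the replicate 1 pair minus that of the others, both as log2 estimates with 95% intervals; red marks an adjusted p under 0.05. The offset passed for TOP1, TOP2B, TOP3A and TDP1, and the interaction for TOP2A.

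The other genes of trapped-complex repair were read from a list of 44, all tested. In limma 0 of 44 passed, and 1 had an unadjusted p under 0.05. Their median difference was -0.014, and 6 were higher and 8 lower in all 3 pairs, where all genes gave 15.6% and 16.3%. In replicates 2 and 3 alone 2 of 44 passed, DDB1 and POLB, both higher, where 6.36% of all genes were called. POLB, the polymerase that fills short gaps in base excision repair, had 11.3, 11.1 and 10.7 CPM in untreated and 12.1, 13.8 and 13.6 CPM in pre-dose replicates 1, 2 and 3, with no overlap of the groups. Its 6-library difference was 0.24 (95% interval 0.05 to 0.43, adjusted p = 1.00), and in replicates 2 and 3 it was 0.31 (adjusted p = 0.0421). The authors' deposited table gave POLB an adjusted p of 0.0344, the one gene of the 44 past the threshold there.

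By role, the 5 partners of TOP3A and TOP3B had a median difference of -0.08. Their medians in the pairs of replicates 1, 2 and 3 were -0.00075, -0.28 and 0.015. BLM, the helicase that acts with TOP3A, had 10.3, 10.9 and 11.2 CPM in untreated and 10.3, 8.55 and 9.37 CPM in pre-dose replicates 1, 2 and 3, so that every pre-dose library was below the lowest untreated one, in replicate 1 by a pair difference of -0.00075 only. Its 6-library difference was -0.19 (95% interval -0.40 to 0.03), and in replicates 2 and 3 it was -0.28 (adjusted p = 0.0908). The 14 genes that attach ubiquitin or SUMO to trapped complexes had a median of 0.0075, and DDB1, an adaptor of CUL4 ligases, had the smallest p with a difference of 0.08 (interval -0.05 to 0.21). In replicates 2 and 3 DDB1 was at 0.13 (adjusted p = 0.0393). The 9 genes of p97, proteases and SPRTN regulators had a median of 0.03, and FAM111A, a protease of replication forks, had the smallest p with -0.06 (interval -0.24 to 0.11).

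The 10 nucleases and their partners had a median of -0.07, and MUS81, which cuts branched DNA, had the smallest p with -0.11 (95% interval -0.27 to 0.04). With replicates 2 and 3 as a block, 4 of the 44 genes passed in limma, where 9.01% of all genes were called. MUS81 (-0.17, adjusted p = 0.0454) and the flap nuclease FEN1 (-0.19, adjusted p = 0.0349) passed as lower, and POLB and DDB1 as higher. FEN1 lost its call without that block (adjusted p = 0.18), and so did MUS81 (0.0619). The offset of replicate 1 passed for 20 of the 44 genes, against 40.8% of all genes. Among those higher in replicate 1 were RMI1, RMI2, BTBD2, CUL4A, RNF4, VCP, UFD1, NPLOC4, USP11, FEN1, PARP1 and LIG3, from 0.16 (UFD1) to 0.47 (FEN1). Lower were FMR1, BTBD1, CUL4B, PIAS1, ZNF451, VCPIP1 and RAD50, from -0.13 (BTBD1) to -0.30 (RAD50).

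The genes whose pattern over the 6 libraries lay nearest to that of TOP2A were EXPH5, MND1 and NUP54. Nearness was the root mean square difference of log2(CPM + 1) after each gene was centred on its own mean, and these had 0.026, 0.030 and 0.034, where the median gene had 0.164. Their replicate 1 pairs differed by 0.20, 0.23 and 0.16 and their replicate 2 pairs by -0.22, -0.26 and -0.27. TOP1 was nearest to ATP13A1 (0.010), CASC3 (0.015) and RPS6KB2 (0.016), where the median gene had 0.124. TDP1 was nearest to ERH (0.013), FZD7 (0.014) and G3BP1 (0.015), with a median gene at 0.146. With 6 libraries and 13616 genes, such neighbours are a description of these libraries.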

How the data were processed

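RNA levels came from 1 deposited table of 13773 rows, of which 77 repeated a gene identifier and were dropped. Its expression columns hold log2 values of CPM, deposited by the authors. Tools named in the submitters' processing notes are bcl2fastq, DRAGEN, edgeR and limma, with the build hg38. No strand setting, annotation or gene filter is given in the sources used here. Also deposited by the authors were log2 fold changes with confidence limits, p-values and adjusted p-values, a moderated statistic and log-odds (a score) and a signed fold change, per the file headers. Their fold changes run from pre-dose to untreated and were turned here.

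Library totals were implied by the lowest value of each column, taken to stand for no reads plus a prior of 0.5. The main test was limma-trend (limma 3.58.1, R 4.3.3) on log2(CPM + 1) values of genes whose mean CPM was 1 or more, with Benjamini-Hochberg adjustment over 13616 genes. Fold changes on this scale understate changes of low genes. Ratios were tested by exact permutation in scipy 1.17.1, and figures drawn with matplotlib 3.10.9. The fits were also run on simulated data with independent normal values. These lacked the pairing of the libraries and the replicate 1 offset of so many genes, so they do not show how the fits behave under those. Positions and lengths came from GENCODE release 29 (GRCh38), which held 13630 of the 13696 identifiers, and promoters from RefSeq.

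Groups and replicate numbers came from the labels. Libraries were treated as paired by number. Deviations from the group mean correlated across genes by 0.664, 0.454 and 0.176 for same-numbered libraries 1, 2 and 3. Untreated replicate 3 with pre-dose replicate 2 reached 0.515, and untreated replicate 2 with pre-dose replicate 3 reached 0.276. For replicates 2 and 3 the pairing is therefore an assumption that these correlations do not settle. The 10 genes, the lists and the tests were chosen with earlier results of these data known. Named genes were the 10, in each role of the repair list the gene with the smallest p and every gene past the threshold in a fit whose count is given, MKI67, CDK1, CDKN1A and MDM2, and the 3 nearest patterns of TOP1, TOP2A and TDP1. A gene that this rule names is not reported here. CD68, KRT18, VIM, THY1 and COL1A1 were named after their values were seen, as were genes that give the end of a range. Alternatives were another pseudocount, filter, scaling, voom, library weights, the replicate block and leaving libraries out.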

Additional observations from a re-analysis of the deposited data

Results flagged for a closer look

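The TOP2A difference between pre-dose and untreated cells was larger in the replicate 1 pair than in the pairs of replicates 2 and 3 by 0.456 on the log2 scale (limma interaction, adjusted p = 0.00521), with a higher pre-dose level in 1 pair and a lower one in the other 2. The pairs carry the labels' replicate numbers, and the split of replicate 1 from the others was chosen because its libraries stood apart in the data.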

How the results depend on the processing

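Of 160 differences recomputed for the 10 genes under 16 alternatives, 142 kept their direction and their side of the threshold. In replicates 2 and 3 alone 866 genes, 1 of the 10 and 2 of the repair list passed. With the replicate block added to that, an alternative chosen after seeing the data, 1227, 2 and 4 did. Voom with library quality weights called 108 genes and 0 of the 10. Leaving out each library in turn gave 0 to 0 calls in all 3 counts. The replicate block over all 6 libraries changed no call: 0 genes passed, and the unadjusted count rose from 280 to 1443. With the replicate block the mean pair difference of the log2 ratio was -0.098 for TOP2A to TOP2B (exact sign-flip permutation) and -0.076 for TDP1 to TOP1, as without it; without 1 library the group differences ran from -0.26 (pre-dose replicate 1 left out) to -0.0058 (pre-dose replicate 2 left out) and from -0.15 to -0.037. Interaction calls, 151 in all, ran from 115 to 1104 without 1 library of replicates 2 and 3, with 826 without pre-dose replicate 2, 1104 without pre-dose replicate 3, 115 without untreated replicate 2 and 123 without untreated replicate 3; the cause was not tested. Offset calls ran from 4531 to 5160.

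The difference of TOP2B, near 0, turned to -0.0041 with median centring, -0.0093 in replicates 2 and 3 with or without the block, and -0.014 with quality weights; without 1 library it ran from -0.090 to 0.081. TOP3B turned to 0.0080 in replicates 2 and 3, with or without the block, and 0.019 with quality weights, and ran from -0.078 to 0.026 without 1 library. TDP1 ran from -0.13 to 0.019 without 1 library. The cause of these turns was not tested. The other 7 genes kept their sign without any 1 library, with a low of 0.0032 for TOP1 and 0.010 for TEX264. Estimated reads limit SPRTN and TOP1MT most.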
